A study of Mus musculus with 2 samples.

Results

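Expression of 10 genes of the cornified envelope and of late epidermal differentiation was compared between wild-type and K14-caSmad1 keratinocytes. They were the spotted genes named Ivl, Lor, Kprp, Cnfn, Evpl, Ppl, Scel, Casp14, Asprv1 and Cdsn in both scanner files, a rule that uses names and no measured value, for a set of genes drawn up with earlier results of these data known. They were read by 12 probes, since Evpl and Ppl each had 2, of 41174 gene probes on the array, and all 10 were among the 11764 genes tested. Wild-type FVB/NJ mice at day 20 after birth were set against K14-caSmad1 mice of the same strain and age, which carry a transgene for constitutively active Smad1, a transcription factor downstream of bone morphogenetic protein (BMP) receptors. The RNA came from primary epidermal keratinocytes, with wild type labelled in Cy3 and K14-caSmad1 in Cy5 on both of 2 arrays, so that no dye swap was available and a difference between the dyes cannot be told apart from one between the genotypes. K14 in the name of a transgene usually stands for the keratin 14 promoter, which is active in basal keratinocytes and the outer root sheath, not in the upper layers where most of these 10 genes are used. How many animals or founder lines gave each RNA sample is not stated in the labels.

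The cornified envelope is the protein shell that replaces the plasma membrane of a keratinocyte as it becomes a dead corneocyte. Envoplakin, periplakin and involucrin are laid down first under the membrane, loricrin and small proline-rich proteins then reinforce the shell, and transglutaminases cross-link them all. Proteases such as caspase-14 and the retroviral-like protease Asprv1 act on filaggrin in the same cells, and corneodesmosin holds corneocytes together until they are shed.

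Loricrin and involucrin, the best known envelope precursors, had ratios of opposite sign in these data. The bases before their transcription starts, which hold the same pair of short motifs, are shown with those of cornifelin, the member with the lowest ratio, from the RefSeq promoter table of build GRCm38.p6, which held 8 entries for 7 of the 10 genes. All run 5′ to 3′ on the gene's own strand and lie before the start of the entry. Those of Lor, Ivl and Cnfn also lie outside the gene's annotated span, while the whole Scel entry lies inside that span and only the bases around its match are shown. Capitals mark an activator protein 1 (AP-1) motif, TGANTCA, and a TATA motif, TATAAA.
Lor (chr3:92083143-92083392, minus strand): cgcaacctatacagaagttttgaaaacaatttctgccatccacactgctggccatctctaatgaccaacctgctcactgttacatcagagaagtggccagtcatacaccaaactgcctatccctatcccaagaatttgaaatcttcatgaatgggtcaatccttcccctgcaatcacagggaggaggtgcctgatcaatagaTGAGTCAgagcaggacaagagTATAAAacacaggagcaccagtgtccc
Ivl (chr3:92573791-92573985, minus strand): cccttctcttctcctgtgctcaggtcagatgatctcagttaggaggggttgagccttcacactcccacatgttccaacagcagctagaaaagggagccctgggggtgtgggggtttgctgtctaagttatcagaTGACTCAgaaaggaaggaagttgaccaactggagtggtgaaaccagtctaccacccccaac
Cnfn (chr7:25369725-25369974, minus strand): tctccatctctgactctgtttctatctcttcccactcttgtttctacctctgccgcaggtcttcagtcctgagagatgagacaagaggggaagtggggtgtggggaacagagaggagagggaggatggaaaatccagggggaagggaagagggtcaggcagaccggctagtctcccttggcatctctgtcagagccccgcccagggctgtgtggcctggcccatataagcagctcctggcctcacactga
Scel (chr14:103513296-103513320, plus strand, AP-1 match and its flanks only): ctccctgcgTGACTCAgtgttgaga

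Searched on both strands in the 250 bases before each start, the AP-1 motif matched in 3 of the 8 entries, against 6.75% of all 32851 promoters in the table. Its first base lay 48 bases before the start of Lor, 116 before that of Ivl and 36 before that of Scel. The TATA motif matched in 2 of 8 entries, Lor at 27 and Ivl at 29 bases before the start (the latter match lies inside the gene's annotated span and is not printed), against 12.4% of all promoters. A grainyhead-like motif, AACNGGTT, matched in 0 of 8 entries (1.79% of all promoters), and a GC-rich motif of BMP-responsive elements, GGCGCC, in 1 of 8, that of Cdsn (9.59%). No match overlapped another. These are descriptions of letters, and the 3 genes that carry the AP-1 match differed in the sign of their ratio.

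The 10 genes did not move as a group. Kprp was 4-fold higher in K14-caSmad1 and Cnfn 3.79-fold lower, Ivl and Casp14 were lower by less than 2-fold, Lor and Scel were higher by less than 2-fold, Evpl and Ppl were slightly lower, and Asprv1 and Cdsn lay near 0. By the rule used here for a call, a ratio past 2-fold on each array in the same direction, 1 member was higher and 1 was lower. Of all 11764 genes tested, 479 (4.07%) were higher and 1153 (9.80%) lower by that rule, or 13.9% in either direction. Ratios were normalized by loess, a curve of ratio against brightness fitted within each array. Under median centring in place of loess the split of all genes turned to 1110 higher and 811 lower, while the members' counts stayed at 1 and 1. The members' median log2 ratio was -0.18, against -0.03 over all genes tested, and it was 0.06 under median centring, against 0.22 over all genes. All 10 members lie in the 2 brightest of 4 brightness classes, where, from the dimmer to the brighter, 7.62% and 7.36% of genes were over 2-fold higher and 12.4% and 18.9% lower. The 2 calls among 10 genes are too few to set the members apart from that background.

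**Figure D1:**
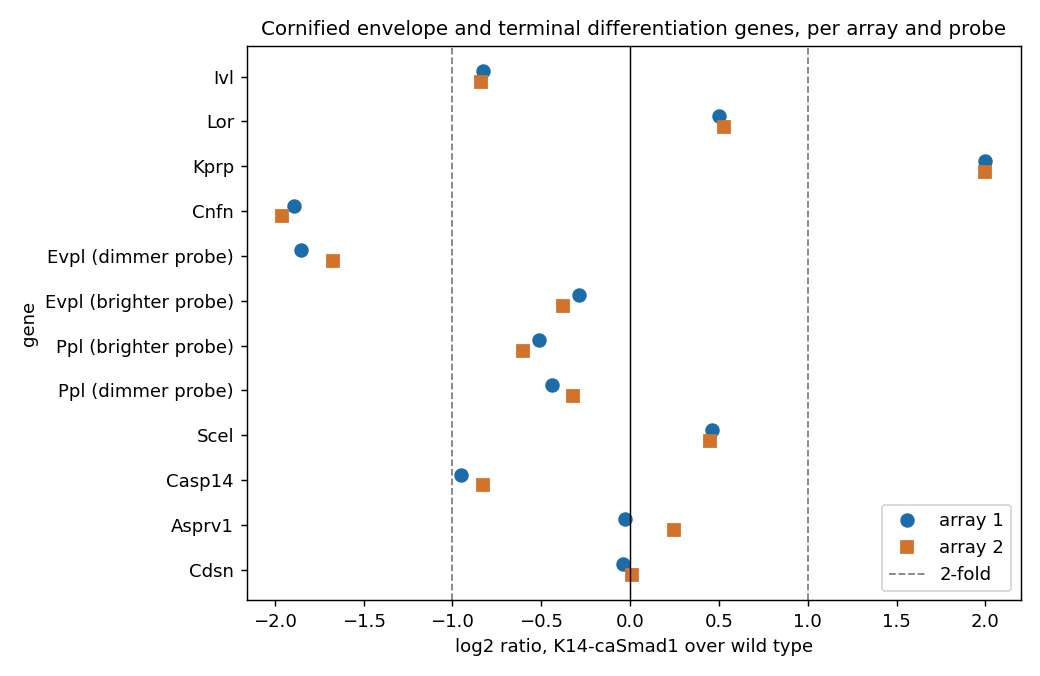
Log2 ratio of K14-caSmad1 over wild type (x axis) of each of the 12 probes of the 10 genes (y axis) on array 1 (circles) and array 2 (squares), with dashed lines at 2-fold. Kprp stands at 2.00 on both arrays, Cnfn at -1.89 and -1.96, and the probes of Evpl lie apart, at -0.34 and -1.76 in the mean.

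The labels call the arrays biological replicates, but they repeated each other as closely as spots within an array did. Across 12287 probes read by 1 spot in both channels, the difference between arrays had a standard deviation of 0.0946 on the log2 scale, and the spread of 94 repeated probes within arrays predicts 0.107. They were therefore counted as 1 sample, and errors below are limma's standard errors (SE) of the mean of both arrays, with no error between animals. With limma's test, 8 members passed an adjusted p of 0.05, 3 higher and 5 lower. So did 87.2% of all genes tested, 40.9% higher and 46.3% lower, and the p says no more than how closely 1 array repeated the other. All 12 probes were well above background in both channels of both arrays, and none carried an outlier flag or a saturated spot. The loess curve took 1.50 to 1.65 off the log2 ratio of the member probes. Smad1 had a log2 ratio of 0.27 (SE 0.0245), and whether its probe reads the transgene is not known. The RNA of the wild-type sample held far more hair follicle signal: all 15 hair shaft markers tested, of 17, were over 2-fold lower in K14-caSmad1, and their summed level was 2301993 to 2439099 in wild type and 107650 to 109373 in K14-caSmad1. In a bulk sample, fewer cells of a type and less RNA per cell cannot be told apart. The part of the hair follicle in the members' ratios was not tested.

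Kprp encodes the keratinocyte proline-rich protein, an insoluble protein of the upper epidermis. Its normalized log2 level was 13.75 and 13.88 in wild type and 15.76 and 15.87 in K14-caSmad1 on arrays 1 and 2. Both K14-caSmad1 values lie above both wild-type values. The log2 ratio was 2.00 on each array (SE 0.0246, limma adjusted p = 1.88e-05), rank 16 from the top of 11764 genes. The probe lies at chr3:92627072-92627131 on build mm9.

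Cnfn encodes cornifelin, a small cysteine-rich envelope component. It showed the reverse, with log2 levels of 16.45 and 16.31 in wild type and 14.56 and 14.35 in K14-caSmad1. The groups did not overlap and the log2 ratio was -1.92 (SE 0.0304, limma adjusted p = 2.66e-05), rank 402 from the bottom. Its probe lies at chr7:26152727-26152786 (mm9).

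Loricrin is the main protein of the finished envelope. Lor levels were 16.40 and 16.27 in wild type and 16.90 and 16.79 in K14-caSmad1, a log2 ratio of 0.52 (SE 0.0255) or 1.43-fold. Only 16 tested probes gave a stronger signal, and no spot of Lor was marked as saturated. Involucrin, a glutamine-rich scaffold precursor, went the other way. Ivl levels were 13.51 and 13.50 in wild type and 12.68 and 12.67 in K14-caSmad1, a log2 ratio of -0.83 (SE 0.0246) or 1.78-fold lower. Neither gene's channels overlapped. The probes lie at chr3:91884206-91884265 for Lor and chr3:92375367-92375426 for Ivl (mm9).

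**Figure D2:**
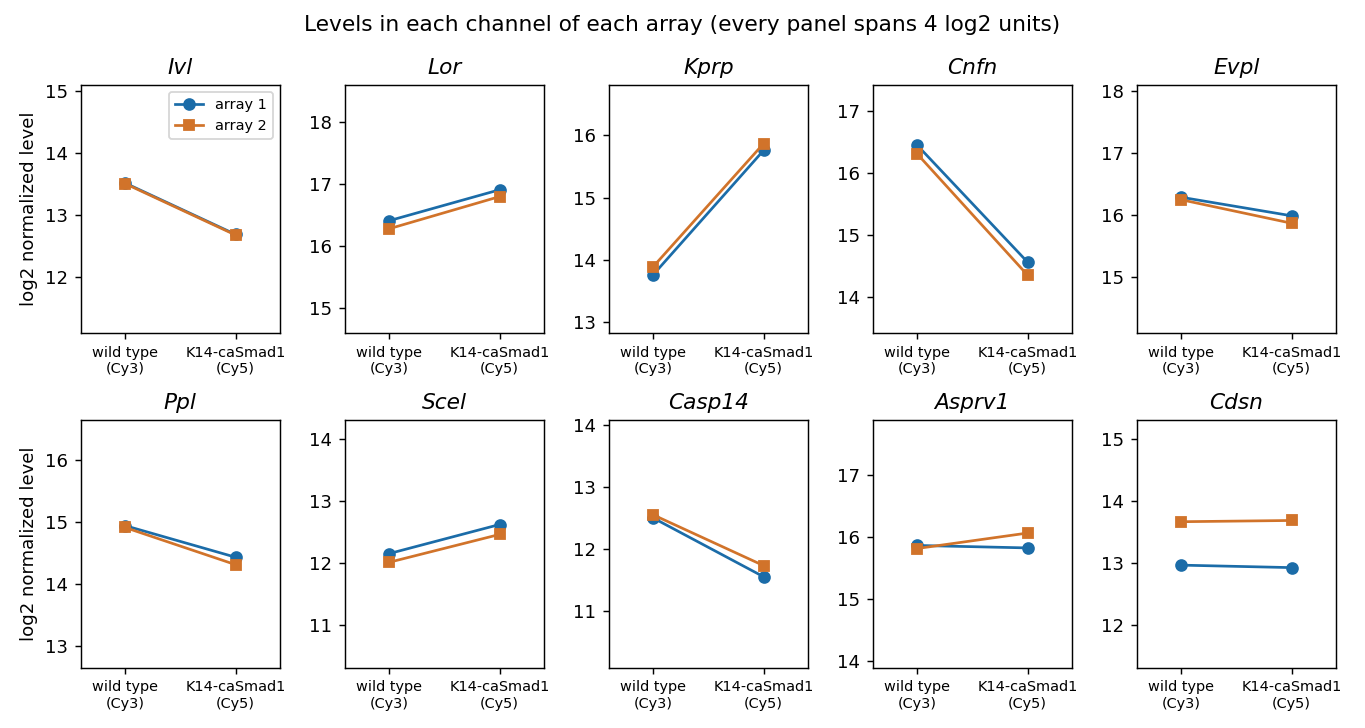
Normalized log2 level (y axis) of each of the 10 genes in the wild-type (Cy3) and K14-caSmad1 (Cy5) channel (x axis), with a line for each array and the same span in every panel. Lines of Kprp, Lor and Scel slope up on both arrays, those of Cnfn, Ivl, Casp14, Evpl and Ppl slope down, and those of Cdsn are flat but lie apart, at 12.96 and 13.66 in wild type.

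Envoplakin and periplakin are plakins, large proteins that join keratin filaments to desmosomes and start the envelope at the membrane. The brighter probe of Evpl (chr11:116081921-116081980, mm9) read 16.29 and 16.25 in wild type and 15.99 and 15.87 in K14-caSmad1, a log2 ratio of -0.34 (SE 0.033). The dimmer probe (chr11:116082184-116082243), which starts 263 bases away, read 14.44 and 14.43 against 12.59 and 12.77, a log2 ratio of -1.76 (SE 0.0548) or 3.39-fold lower. Both put Evpl lower, without overlap between channels, but they differ by 1.42 on the log2 scale. Of 2822 genes with several tested probes, 6.31% had so wide a gap, and the median gap was 0.44. Whether Evpl is called 2-fold lower therefore depends on the probe, and the size of its change is uncertain.

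The probes of Ppl lay closer together in value. The brighter one (chr16:5086384-5086428, mm9) had levels of 14.94 and 14.91 in wild type and 14.43 and 14.31 in K14-caSmad1, and a log2 ratio of -0.55 (SE 0.0341). The other (chr16:5097481-5097540) read 10.33 and 10.29 against 9.89 and 9.97, a log2 ratio of -0.38 (SE 0.0398). The gap of 0.17 was smaller than in most genes with several probes, 79.4% of which had a gap at least as wide. With the normexp fit on all spots neither plakin passed limma's threshold (log2 ratios of -0.27 for Evpl and -0.47 for Ppl).

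The other 5 members of the plakin family were above 0 in each of the 13 settings, and 4 of them were higher by limma. None passed 2-fold on both arrays as reported, and up to 3 did in other settings. Desmoplakin (Dsp), the plakin of all desmosomes, had a log2 ratio of 1.09 (array 1 gave 0.90 and array 2 gave 1.28, and its other probes 0.75 and 0.03). Macf1, a linker of microtubules and actin, was at 1.00, epiplakin (Eppk1) at 0.50 and plectin (Plec) at 0.37. Dst, the fifth, had 0.09 and did not pass. Under median centring Evpl and Ppl remained below 0, at -0.13 and -0.31.

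Scel encodes sciellin, a LIM-domain envelope precursor. Its levels were 12.15 and 12.01 in wild type and 12.62 and 12.46 in K14-caSmad1, a log2 ratio of 0.46 (SE 0.0247) or 1.37-fold, without overlap. The probe lies at chr14:104009953-104010012 (mm9). Besides Kprp, only Scel and Lor among the members were higher in K14-caSmad1 by limma.

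The proteases differed. Casp14, caspase-14, had levels of 12.50 and 12.55 in wild type and 11.55 and 11.73 in K14-caSmad1. The groups did not overlap, and the log2 ratio was -0.89 (SE 0.0412, limma adjusted p = 0.000165) or 1.85-fold lower. Asprv1 had 15.86 and 15.81 in wild type and 15.82 and 16.06 in K14-caSmad1. Its channels overlapped, with ratios of -0.03 and 0.25 on the arrays, and the mean of 0.11 (SE 0.0793) did not pass (limma adjusted p = 0.261). The arrays differed by 0.29 here, more than for any other member. Without background subtraction and with median centring Asprv1 passed, at 0.28 and 0.32, and the median of all genes then stood at 0.00 and 0.22. The probes lie at chr10:78175014-78175073 for Casp14 and chr6:86579351-86579410 for Asprv1 (mm9).

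Cdsn, corneodesmosin, had nearly the same level in both genotypes. Its levels were 12.96 and 13.66 in wild type and 12.92 and 13.68 in K14-caSmad1, so that array 2 was brighter than array 1 by about the same amount in both channels. The arrays gave ratios of -0.04 and 0.01 on the log2 scale, with a mean of -0.01 (SE 0.0287, limma adjusted p = 0.664). It turned positive under 5 of 12 alternative settings, and passed limma's threshold in 2 of these, at 0.09 without background subtraction (adjusted p = 0.043) and at 0.26 with median centring (adjusted p = 0.00249). The probe lies at chr17:35693832-35693891 (mm9). In 8 of the 10 genes the levels did not overlap between the channels, 3 higher and 5 lower. Of all genes with levels on both arrays 73.9% did not overlap, 34.3% higher and 39.6% lower, and among the members Asprv1 and Cdsn were the 2 exceptions. For 9 of the 10 genes no alternative setting moved the ratio past or back over the 2-fold line on both arrays. Evpl did so with the mean of its probes, at -1.05.

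**Figure D3:**
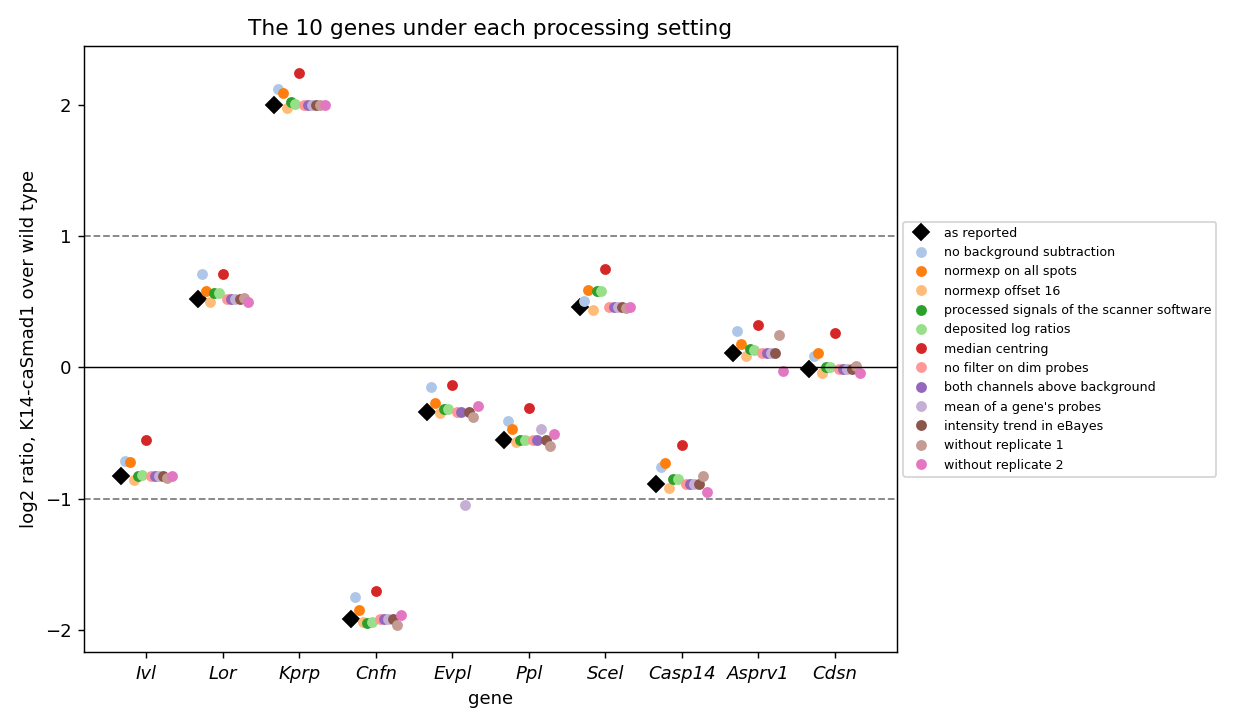
Log2 ratio of K14-caSmad1 over wild type (y axis) of each of the 10 genes (x axis) as reported (diamonds) and under 12 alternative settings (circles), with dashed lines at 2-fold. Kprp ranged from 1.98 to 2.24 and Cnfn from -1.96 to -1.70, and Asprv1 and Cdsn were the members whose sign changed.

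Ivl, Lor and Kprp lie in the epidermal differentiation complex, a cluster of envelope precursor and S100 genes on chromosome 3. Between the probes of S100a1 and S100a10 (chr3:90315133-93368496, mm9) 51 genes were tested, of which 5 were over 2-fold higher and 19 lower, with a median of -0.27. Some of the lower genes, S100a8, S100a9 and Tchhl1 among them, were not well above background on every array of both channels. Without such genes 20 passed 2-fold in either direction, against 24 with them. The tested genes nearest to Lor, Ivl and Kprp differed from them in sign or in size. The nearest tested genes to Lor were the pseudogene Mif-ps3 (-1.05), whose probe may also read related copies, and Prr9 (-4.46), a proline-rich gene 42 kb away. Those nearest to Ivl were Sprr4 (-0.24) and Lce1a1 (0.77), and those nearest to Kprp were LOC545547 (0.11) and 2310050C09Rik (0.75). Of 11 genes between Lor and Ivl, most of them small proline-rich genes, 10 were below 0 and 8 over 2-fold lower. Over the 9 of them well above background in both channels, 9 were below 0 and 7 over 2-fold lower. Of 11 genes between Ivl and Kprp, most of them late cornified envelope genes, 9 were above 0 and none passed 2-fold. These intervals were chosen after their values were seen. With median centring the counts were 9 of 11 below 0, 7 of them over 2-fold, and 10 of 11 above 0, 2 of them over 2-fold. With normexp on all spots 4 of the 11 genes between Lor and Ivl were over 2-fold lower. The genes share a chromosome region and, within families, similar sequences that probes may not tell apart.

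**Figure D4:**
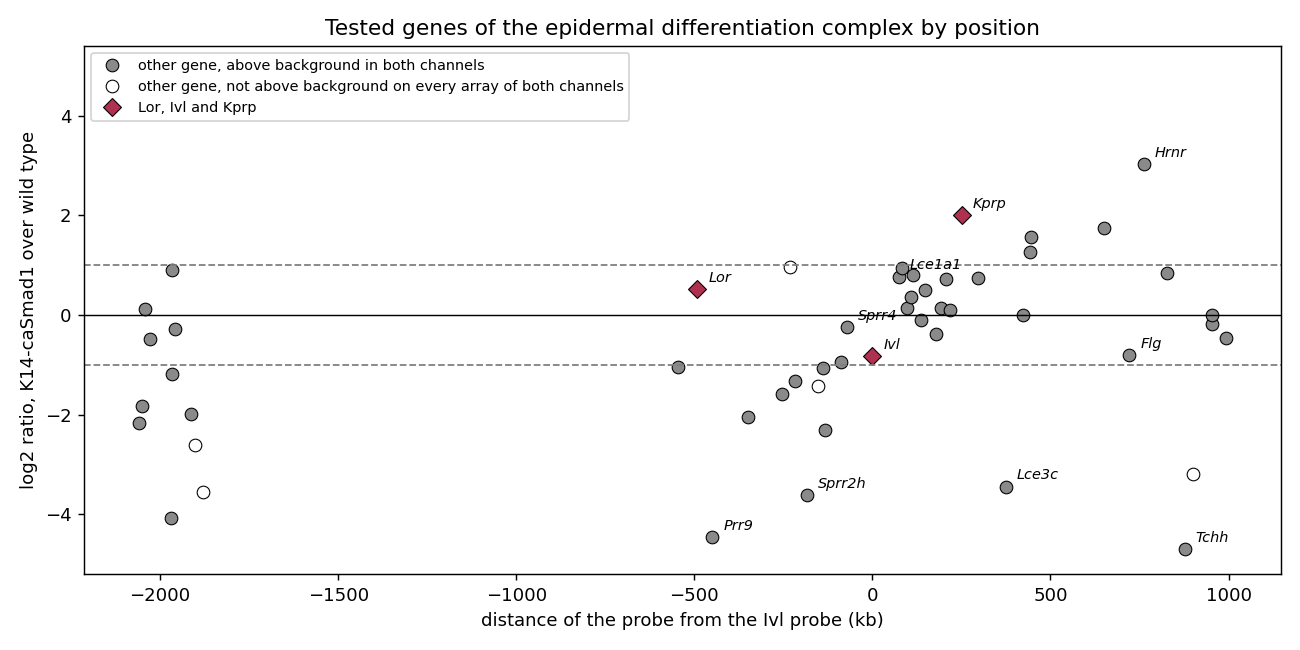
Log2 ratio of K14-caSmad1 over wild type (y axis) of the 51 tested genes of the epidermal differentiation complex by the distance of their probe from that of Ivl in kb (x axis), with Lor, Ivl and Kprp as diamonds and dashed lines at 2-fold. Open circles are genes not well above background on every array of both channels. Genes between Lor and Ivl lie mostly below 0 and genes between Ivl and Kprp mostly above it.

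Outside that cluster, some neighbours also differed from the member beside them. Psors1c2, 22.5 kb before Cdsn, had a log2 ratio of -5.15 and is one of the hair shaft markers, while Cdsn stood at -0.01. Lipe, the hormone-sensitive lipase 13.2 kb after Cnfn, was at least 2.39-fold lower, not well above background in K14-caSmad1. Mycbp2, 497 kb before Scel, had 0.44, close to the ratio of Scel. These neighbours were chosen by position for all members, and the ones named here after their values were seen.

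Among the other envelope precursors, 29 of 40 genes listed were tested, of which 13 were higher and 13 lower by limma and 4 and 8 by the 2-fold rule (median 0.03). Over the 27 well above background in both channels, 4 were over 2-fold higher and 7 lower. Hrnr (hornerin, 3.03, another probe 3.32) was higher, and Sprr2h (-3.61) and Lce3c (-3.44, another probe -3.01) were lower. Tchhl1 was at least 6.36-fold lower, not well above background in K14-caSmad1. Such bounds set the mean of the bright channel against the higher of the dim probe's own signal and the lowest signal well above background, and are open to dye bias.

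Of 8 enzymes listed that cross-link or deiminate envelope proteins, 6 were tested. Of the 4 well above background in both channels on both arrays, 3 were over 2-fold lower and 0 higher. The peptidyl arginine deiminases Padi1 (-4.49), Padi3 (-4.09) and Padi4 (-2.26, another probe -2.30) fell most, and the transglutaminase Tgm3 was at least 2.4-fold lower. Padi3 is also one of the hair shaft markers. Tgm1, the membrane-bound transglutaminase of the epidermal envelope, had -0.47 and is named after its value was seen. Tgm3 entered through the wild-type channel, where it is high. Tgm5 (0.12) was not well above background on every array of both channels either. Counts over all 6 and their median are therefore not read.

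Partners of corneodesmosin and enzymes of desquamation, 15 tested of 16, were higher in 9 and lower in 5 cases by limma, with 4 over 2-fold higher and 1 lower (median 0.38). The protease Klk7 (1.60, other probes 0.51 and 0.84), its inhibitor Spink5 (1.43) and the desmosomal cadherin Dsc1 (1.30, another probe 0.58) were higher. The membrane protease St14, matriptase, was lower (-1.25). Caspases and filaggrin-processing enzymes, 9 tested of 10, were 5 higher and 3 lower, with 2 over 2-fold lower and 0 higher (median 0.26). Legumain (Lgmn, -1.48), cathepsin H (Ctsh, -1.43) and Casp9 (-0.74) were lower, and bleomycin hydrolase (Blmh, 0.67, another probe 0.66), which breaks filaggrin down to amino acids, was higher.

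Genes of the cornified lipid envelope, the lipid layer bound to the protein shell, came next. Of 13 tested of 15, 5 were higher and 4 lower by limma, and 1 was over 2-fold higher (median 0.08). The fatty acid elongases Elovl4 (1.04) and Elovl1 (0.81) and the lipid transporter Abca12 (0.68) were higher, and the fatty acid transporter Slc27a4 (-0.70, another probe -0.74) was lower. Secreted and surface proteins of the upper layers, 14 tested of 15, were 6 higher and 8 lower, 1 and 3 of them by the 2-fold rule (median -0.18). Over the 13 well above background in both channels, 1 was over 2-fold higher and 2 lower. Serpinb12 (1.36) was higher, and Lypd5 (-1.47) and gasdermin A (Gsdma, -1.06, another probe -1.02) were lower. Crisp1 was at least 19.8-fold lower, not well above background in K14-caSmad1, with log2 ratios of -4.14 and -5.57 on arrays 1 and 2.

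Regulators of terminal differentiation, 20 tested of 23, were 13 higher and 6 lower by limma, with 6 over 2-fold higher and 3 lower (median 0.55). Over the 19 well above background in both channels, 6 were over 2-fold higher and 2 lower. Trp63 (1.69), the epithelial regulator p63, is counted among the higher genes, but another probe read -0.78 and its direction is therefore uncertain. Rora (1.61, another probe 1.31) and Gata3 (1.41) were higher, and Ovol1 (-1.94, another probe -0.62), a repressor of proliferation, was lower. Every list is read beside the background of 40.9% of all genes higher and 46.3% lower by limma.

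**Figure D5:**
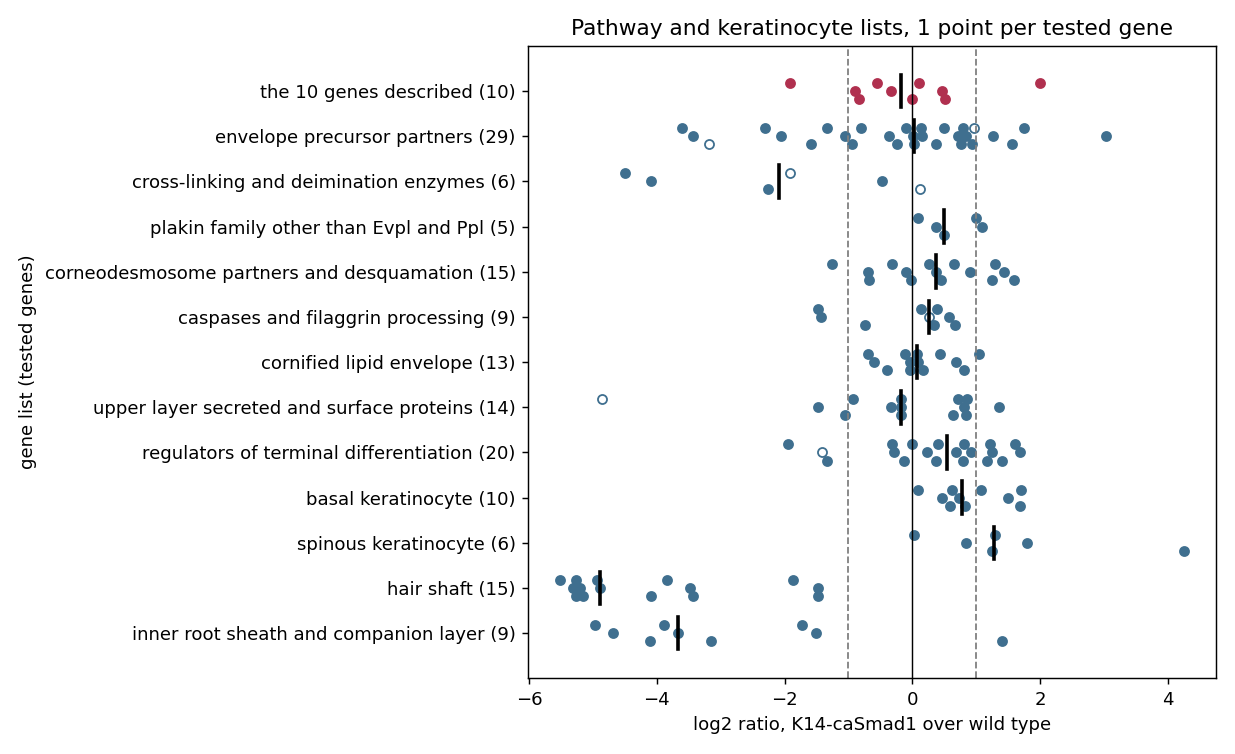
Log2 ratio of K14-caSmad1 over wild type (x axis) of each tested gene of the pathway and keratinocyte lists (y axis, number of genes in brackets), with a bar at the median and dashed lines at 2-fold. Open points are genes not well above background on every array of both channels. The 10 genes described spread around a median of -0.18, spinous markers lie above 0 and hair shaft markers lie below -1.

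Keratinocyte markers were well above background in both channels, in 10 of 10 basal and 6 of 6 spinous genes. All 10 basal keratinocyte markers were above 0, 9 of them higher by limma and 4 over 2-fold (median 0.77). They were led by Krt5 (1.70), Trp63 and Itga6 (1.50), and these counts include Trp63 though its direction is uncertain, as above. The summed level of the 10 markers was 203361 to 211280 in wild type and 380600 to 401514 in K14-caSmad1. Of 6 spinous markers, 5 were higher and 4 over 2-fold (median 1.27), led by Krt2 (4.26, another probe 3.34), Krt1 (1.80) and Dsc1, while Krt10 had 0.02, with sums of 233219 to 246386 and 449640 to 457521. Inner root sheath and companion layer markers were lower in 8 of 9 tested genes of 11 listed (Gata3 was the exception), led by Krt28 (-4.97), trichohyalin (Tchh, -4.69) and Krt26 (-4.10). Their sums were 978971 to 1017541 in wild type and 96976 to 100942 in K14-caSmad1. The largest falls of hair shaft markers were those of Krtap1-5 (-5.52), Krtap4-13 (-5.31) and Krt33a (-5.27). Members such as Casp14 and Cdsn are known from the hair follicle as well as from the epidermis. The part of the hair follicle in the ratios of any member was not tested.

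Other cell types that a preparation of epidermis can hold were read through their own lists. A gene above background in wild type alone passed the filter through that channel, which favours a ratio below 0. Directions in the melanocyte, fibroblast, endothelial and erythroid lists are therefore read only from genes above background in both channels on both arrays. Those genes are named after their values were seen. Of the 9 melanocyte markers 3 were above background in both channels, Pmel (-1.28), Gpnmb (-1.16) and Dct (-1.04). With no filter, 7 of the 9 were below 0 and 2 above. Langerhans cell markers were 4 higher and 1 lower of 8 (summed level 39587 to 43991 in wild type and 45965 to 48594 in K14-caSmad1). The 1 lower, Itgax (-0.41), was not well above background in K14-caSmad1, so its direction is not read. Markers of dendritic epidermal T cells were 4 higher and 0 lower of 6 tested (22049 to 24390 and 28917 to 32769). Of 7 fibroblast markers only Fbln1 (0.29) was above background in both channels, while Col1a1, Col1a2, Col3a1 and Dcn were not. Of 7 endothelial markers 0 were above background in both channels, and with no filter 4 were below 0 and 3 above (median -0.08). Of 6 erythroid markers Car2 (-2.49) and Hba-a1 (-1.39) were above background in both channels and lower. Sebaceous markers were 2 higher and 3 lower of 7 tested (51175 to 56269 and 57024 to 63184), with a median of -0.01. Elovl3 (-3.20) and Mgst1 (-0.95, another probe -2.14) were lower and Cidea (0.74) was higher. Of the adipocyte markers only Fabp4 was tested (-4.67, summed level 164394 to 186909 and 6449 to 7340), and adiponectin, leptin and the others of that list were not well above background. No skeletal muscle marker, 0 of 6, was well above background in either channel on both arrays.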

How the data were processed

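The 2 arrays were read by Agilent Feature Extraction (version 10.5.1.1, per the file headers), on probes placed on mouse build mm9. The deposited intensity values used are each spot's mean signal and local background, not normalized, per the file headers. The authors' deposited log10 ratio table equals the scanner software's processed ratios to within 0.00397, with medians of 0.023 and -0.01, so its scale and direction (Cy5 over Cy3) are known.

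In limma 3.58.1 (R 4.3.3), background was corrected by normexp with offset 50, leaving out 36 spots of array 1 on a non-uniform local background, and log2 ratios were normalized by loess (span 0.3). Flagged outliers were dropped and repeated spots averaged. Channel levels are loess and Aquantile normalized log2 values. A probe was tested if well above background on both arrays in at least 1 of the channels (15127 probes), with 15570 and 16144 gene spots so marked in wild type and 14412 and 15800 in K14-caSmad1. A gene took its brightest tested probe. Names were updated through RefSeq (GRCm38.p6): 24844 probes by accession, 6045 by symbol and 1810 by synonym, while 8475 kept the file's name. Tests were lmFit and eBayes with Benjamini-Hochberg adjustment over all genes. On simulated arrays of this comparison with 11750 genes, 100% of 200 changed genes were recovered, with 12 false calls. In the data limma called 87.2% of genes, a far larger share than was changed there. The simulation does not measure dye bias or the spread between animals. The members and lists were chosen with earlier results of these data known. Named genes are all members, up to 4 of each pathway list and up to 3 of each marker list with the largest ratio past limma's threshold, and the neighbours of Ivl, Lor and Kprp. Exons and UTRs on mm9 were not analysed here.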

Additional observations from a re-analysis of the deposited data

How the results depend on the processing

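The ratios of Ivl, Lor, Kprp, Cnfn, Scel and Casp14 kept their sign and their side of limma's threshold in all 12 alternatives, where those without 1 array give a value and no test. Evpl and Ppl passed in all tested alternatives except the normexp fit on all spots. Cdsn turned to 0.09 without background subtraction, 0.11 with normexp on all spots, 0.00 with the deposited ratios and 0.26 with median centring, and ran from -0.04 to 0.01 over the arrays. Asprv1 ran from -0.03 to 0.25 over the arrays. The cause of these shifts was not tested. When all probes of a gene were averaged, 2 members were 2-fold lower, Evpl joining through its second probe. Over all genes tested, 479 were 2-fold higher, against 303 with normexp on all spots, 1256 with processed signals, 1253 with deposited ratios and 1110 with median centring. The number 2-fold lower was 1153, against 474 with normexp on all spots, 1877 with processed signals, 1876 with deposited ratios and 767 without background subtraction. All member probes lie well above background, and 2 arrays counted as 1 sample give no error between animals.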
